A study of Mus musculus with 24 samples.

Results

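The genes described here code for the enzymes that carry glycolysis from glucose 6-phosphate isomerase down to pyruvate kinase. They are Gpi1, Aldoa, Tpi1, Gapdh, Pgk1, Pgam1, the 3 enolase genes Eno1, Eno2 and Eno3, and Pkm. The rule that picks them uses their names only, from a file that lists 55487 genes, and all 10 were among the 14541 genes with enough reads to be tested (10 or more normalized counts in 6 or more libraries). The upper steps of the pathway, from glucose uptake to phosphofructokinase, are used only for comparison. RNA was taken from wild-type C2C12 myotubes, which are cells of a mouse skeletal muscle line that were differentiated in culture under 5 % O2 and labelled day 5. Cultures were kept for 2 h under 5 % or 1 % O2. They were left without stimulation (5 % CTRL and 1 % CTRL) or were electrically stimulated with repeated pulse trains (5 % STIM and 1 % STIM), with 6 biological replicates in each of the 4 groups. All cultures come from 1 cell line, so the replicates measure the spread between cultures of that line.

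These enzymes split fructose 1,6-bisphosphate into trioses, oxidize the trioses and regenerate ATP at phosphoglycerate kinase and pyruvate kinase. Several steps have a form used in most cells and a form typical of muscle: Eno1 and Pgam1 are the widely expressed enolase and phosphoglycerate mutase genes, and Eno3 and Pgam2 are their muscle counterparts. Eno2 is best known from neurons. Many glycolysis genes are textbook targets of the hypoxia-inducible factors, transcription factors that accumulate when O2 is scarce and bind a short core motif with the letters ACGTG or GCGTG. Glycolysis genes are also known for processed pseudogenes, copies of their spliced mRNA elsewhere in the genome, which can take up reads of the parent gene.

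Promoter sequence was read from RefSeq (build GRCm38.p6), with 15 windows of 300 bases that cover all 10 genes, each from 250 bases before an annotated start to a short way past it. The motif ACGTG (or CACGT on the other strand) occurred in a window of 5 of the 10 genes, against 19.6 % of all 32851 promoter windows, and GCGTG (or CACGC) in a window of 4 genes, against 32.4 %. The genes with several windows had more chances to hold a motif. The 250 bases before the start are shown for 3 genes that represent the strongest and the weakest differences between 1 % and 5 % O2 described below, with the motifs in capitals and the sequence read along the strand of the gene. They are Pgam1 at chr19:41911621-41911870 (plus strand), Eno2 at chr6:124769674-124769923 (minus strand) and Eno3 at chr11:70656926-70657175 (plus strand).
Pgam1: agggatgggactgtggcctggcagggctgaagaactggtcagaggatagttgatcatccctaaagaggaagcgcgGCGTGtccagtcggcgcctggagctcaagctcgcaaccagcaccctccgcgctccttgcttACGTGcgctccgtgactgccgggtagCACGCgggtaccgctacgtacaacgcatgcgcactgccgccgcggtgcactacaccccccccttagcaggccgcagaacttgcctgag
Eno2: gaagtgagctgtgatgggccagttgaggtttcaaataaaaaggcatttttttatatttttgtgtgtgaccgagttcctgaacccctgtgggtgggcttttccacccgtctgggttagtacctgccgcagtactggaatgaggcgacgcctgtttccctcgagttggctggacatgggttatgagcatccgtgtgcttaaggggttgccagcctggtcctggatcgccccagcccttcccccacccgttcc
Eno3: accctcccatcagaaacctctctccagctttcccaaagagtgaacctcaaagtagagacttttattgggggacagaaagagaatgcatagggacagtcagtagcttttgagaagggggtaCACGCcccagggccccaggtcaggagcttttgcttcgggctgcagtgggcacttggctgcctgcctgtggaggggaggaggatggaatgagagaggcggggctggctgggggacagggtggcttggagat
The Pgam1 window held 1 ACGTG and 2 GCGTG motifs, the Eno3 window held 1 GCGTG motif, and neither motif was found in the Eno2 window. Over all 10 genes, ACGTG was found for Aldoa, Gapdh, Pgk1, Pgam1 and Pkm, and GCGTG for Gapdh, Pgam1, Eno1 and Eno3. Gpi1, Tpi1 and Eno2 had neither. Of the genes with a motif, Aldoa and Eno3 were not called in 1 % CTRL against 5 % CTRL below, while Gpi1, Tpi1 and Eno2 were called higher. These matches describe letters only, and a window without them says nothing about motifs elsewhere at the gene.

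The counts per gene summed to between 26541858 and 28173745 in a library. The size factors by which the authors divided the counts lay between 0.955 and 0.992 in the 5 % O2 groups and between 1.02 and 1.05 in the 1 % O2 groups. All 12 myotube marker genes passed the filter, and their summed normalized counts had group medians between 569484 and 648354, lowest in 1 % STIM and highest in 5 % CTRL. The 6 myoblast and cell cycle markers summed to between 3599 (5 % CTRL) and 4595 (1 % STIM) as group medians. The highest library of 1 % CTRL reached 6167, against a median of 4353 in that group. Markers of endothelial cells, leukocytes and adipocytes summed to at most 13.3 in any library. Of all tested genes, 29.4 % were higher and 30.5 % lower in 1 % CTRL than in 5 % CTRL. Of the myotube markers, 7 of 12 were lower and 1 was higher in this comparison, and of the myoblast markers 4 of 6 were higher and 1 was lower. Their part in the results below was not tested. In bulk RNA, a change in the number of cells of one type cannot be told apart from a change in RNA per cell.

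Under 1 % O2, 8 of the 10 genes were higher than under 5 % O2 in unstimulated myotubes, and Aldoa and Eno3 were not called. Eno2 rose about 4.22-fold and Pgam1 1.78-fold, and the log2 fold changes of the other 6 lay between 0.26 (Gapdh) and 0.44 (Gpi1). In this comparison 59.9 % of all tested genes were called, 29.4 % as higher and 30.5 % as lower. The 6 libraries of 1 % CTRL lay wholly above the 6 of 5 % CTRL for all 8 genes, which was so for 18.2 % of all tested genes, while 19.9 % were separated in the opposite direction. The median log2 fold change was 0.34 over the 10 genes and 0.0015 over all tested genes. The plot of counts by library shows these groups side by side.

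**Figure D1:**
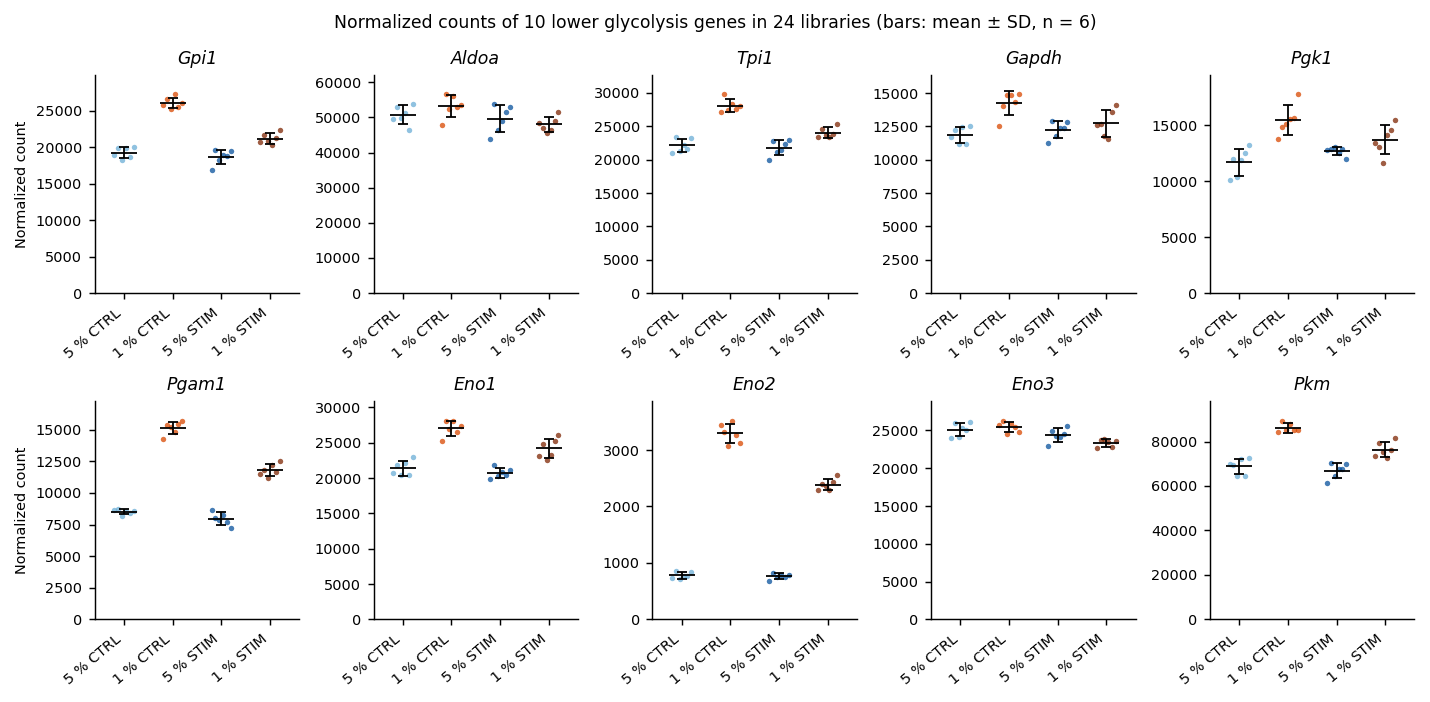
Normalized counts (y axis, from 0) of the 10 genes in the 24 libraries, grouped as 5 % CTRL, 1 % CTRL, 5 % STIM and 1 % STIM (x axis), with 1 point per library and bars for the mean ± SD (n = 6). The 1 % CTRL points stand above the 5 % CTRL points without overlap in 8 panels, and overlap them for Aldoa and Eno3.

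Gpi1 (ENSMUSG00000036427, chromosome 7, 34201330 to 34230336, minus strand, GRCm38 as for all genes below) codes for the isomerase that turns glucose 6-phosphate into fructose 6-phosphate. Its normalized counts (lowest, median and highest of 6 libraries) were 18276, 19404 and 20040 in 5 % CTRL, 25296, 25938 and 27250 in 1 % CTRL, 16884, 18885 and 19590 in 5 % STIM, and 20348, 21042 and 22364 in 1 % STIM. Every library under 1 % O2 thus exceeded every library under 5 % O2, and the stimulated 1 % group lay between the unstimulated 1 % group and both 5 % groups. The log2 fold change of 1 % CTRL against 5 % CTRL was 0.44 ± 0.033 (SE, limma, adjusted p = 1.16e-13).

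Aldoa (ENSMUSG00000030695, chromosome 7, 126795234 to 126800751, minus strand) codes for the aldolase of muscle and most other cells, which splits fructose 1,6-bisphosphate. It had 46543, 50534 and 53925 normalized counts in 5 % CTRL, 47953, 53312 and 56541 in 1 % CTRL, 43894, 50269 and 53751 in 5 % STIM, and 45588, 47730 and 51558 in 1 % STIM. The 4 groups overlapped. The difference between 1 % CTRL and 5 % CTRL was 0.071 ± 0.046 on the log2 scale (95 % interval -0.019 to 0.16, adjusted p = 0.191). Scaling every library to an equal total moved the median of all genes to 0.082, and the Aldoa difference was then 0.15 and passed the test (adjusted p = 0.00682). A second, low row carries the symbol Aldoa (ENSMUSG00000114515, chromosome 7, 126800790 to 126809108, next to the main gene), with a mean of 4.99 normalized counts in 5 % CTRL and 18.6 in 1 % CTRL (log2 fold change 1.71, adjusted p = 3.19e-05). The 5 % CTRL libraries of this second row lay between 2.02 and 9.42 counts, and it would not have passed the filter without its libraries under 1 % O2. The size of its rise therefore rests on low counts. It was kept apart from the main row.

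Tpi1, the triose phosphate isomerase gene (ENSMUSG00000023456, chromosome 6, 124810586 to 124814296, minus strand), behaved much like Gpi1 in its group levels. Its counts were 20971, 21913 and 23378 in 5 % CTRL, 27186, 27853 and 29778 in 1 % CTRL, 20020, 21913 and 22979 in 5 % STIM, and 23358, 23725 and 25403 in 1 % STIM. Each 1 % group lay wholly above the 5 % group with the same stimulation. Tpi1 rose by 0.34 ± 0.033 (log2, SE) in 1 % CTRL against 5 % CTRL (adjusted p = 6.63e-11). The correlation of Gpi1 with Tpi1 over the 24 libraries was 0.984, and that of Gpi1 with Aldoa was 0.538. These are descriptions over libraries that share the group differences and the normalization.

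Gapdh, the glyceraldehyde 3-phosphate dehydrogenase gene that is often used as a reference (ENSMUSG00000057666, chromosome 6, 125161715 to 125166467, minus strand), had 11191, 11949 and 12524 counts in 5 % CTRL and 12547, 14593 and 14900 in 1 % CTRL, so that the nearest libraries of the 2 groups were almost equal. It rose 1.199-fold (log2 0.26 ± 0.048 SE, adjusted p = 3.21e-05). In 5 % STIM it had 11229, 12397 and 12897 counts and in 1 % STIM 11526, 12651 and 14081, and these groups overlapped.

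Pgk1 (ENSMUSG00000062070, chromosome X, 106187100 to 106203699, plus strand) codes for phosphoglycerate kinase, the first step that returns ATP. It had 10147, 11918 and 13220 counts in 5 % CTRL, 13762, 15356 and 17758 in 1 % CTRL, 12015, 12818 and 13098 in 5 % STIM, and 11650, 13792 and 15445 in 1 % STIM. The spread of its libraries differed between groups, with a coefficient of variation of 10.3 % in 5 % CTRL, 8.52 % in 1 % CTRL and 9.62 % in 1 % STIM, the highest of the 10 genes in these groups, and 3.02 % in 5 % STIM, the lowest of the 10 there. The 1 % CTRL libraries still lay above all 5 % CTRL libraries (log2 fold change 0.41 ± 0.069 SE, adjusted p = 2.38e-05).

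Pgam1 (ENSMUSG00000011752, chromosome 19, 41911923 to 41918660, plus strand) codes for the widely expressed phosphoglycerate mutase. It had 8140, 8547 and 8712 counts in 5 % CTRL, 14276, 15277 and 15714 in 1 % CTRL, 7200, 7948 and 8678 in 5 % STIM, and 11158, 11729 and 12501 in 1 % STIM. The gap between the O2 groups was several times the spread within them. Pgam1 rose by 0.83 ± 0.034 (log2, SE) in 1 % CTRL against 5 % CTRL (adjusted p = 1.78e-20).

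The enolase genes differed from each other. Eno1 (ENSMUSG00000063524, chromosome 4, 150236721 to 150248879, plus strand) had 20384, 21258 and 22998 counts in 5 % CTRL, 25251, 27179 and 28118 in 1 % CTRL, 19871, 20587 and 21826 in 5 % STIM, and 22559, 24075 and 26109 in 1 % STIM. Its log2 fold change of 1 % CTRL against 5 % CTRL was 0.34 ± 0.036 (SE, adjusted p = 5.66e-10). Eno2 (ENSMUSG00000004267, chromosome 6, 124760053 to 124769673, minus strand) had 714, 772 and 854 counts in 5 % CTRL, 3074, 3296 and 3520 in 1 % CTRL, 675, 770 and 827 in 5 % STIM, and 2295, 2377 and 2560 in 1 % STIM. Eno2 therefore had the lowest counts and the largest rise of the 10 genes (log2 2.08 ± 0.046 SE, adjusted p = 5.14e-28). Eno3 (ENSMUSG00000060600, chromosome 11, 70657202 to 70662513, plus strand) had 24037, 25204 and 26057 counts in 5 % CTRL, 24589, 25550 and 26288 in 1 % CTRL, 22970, 24422 and 25602 in 5 % STIM, and 22725, 23496 and 23879 in 1 % STIM. The unstimulated Eno3 groups overlapped, with a difference of 0.019 ± 0.028 (log2, SE, 95 % interval -0.036 to 0.073, adjusted p = 0.586). Scaling to an equal total gave 0.099 for Eno3, with adjusted p = 0.00188.

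Pkm (ENSMUSG00000032294, chromosome 9, 59656368 to 59679375, plus strand) codes for pyruvate kinase, which makes pyruvate and ATP. The 2 main splice forms of Pkm are counted together here. It had 64401, 69511 and 72451 counts in 5 % CTRL, 84100, 85010 and 89354 in 1 % CTRL, 61180, 67750 and 70314 in 5 % STIM, and 72613, 75818 and 81618 in 1 % STIM. It held the most reads of the 10 genes in each group. Pkm rose by 0.32 ± 0.035 (log2, SE) in 1 % CTRL against 5 % CTRL (adjusted p = 8.64e-10).

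Among stimulated myotubes, 6 of the 10 genes were higher under 1 % than under 5 % O2: Gpi1, Tpi1, Pgam1, Eno1, Eno2 and Pkm. In this comparison 57.4 % of all tested genes were called, 29 % as higher and 28.4 % as lower. All 6 had groups that did not overlap, which was so for 18.7 % of all tested genes in each direction, and the median log2 fold change of the 10 genes was 0.16. Eno2 rose 3.13-fold (log2 1.65 ± 0.046 SE, adjusted p = 5.24e-25) and Pgam1 1.49-fold (log2 0.57 ± 0.034 SE, adjusted p = 5.5e-16). The rises of the other 4 lay between 0.14 (Tpi1, adjusted p = 0.000426) and 0.22 (Eno1, adjusted p = 2.37e-06) on the log2 scale. Gapdh (log2 0.052, adjusted p = 0.375), Pgk1 (0.11, adjusted p = 0.196), Aldoa (-0.046, adjusted p = 0.41) and Eno3 (-0.064, adjusted p = 0.0505) did not pass.

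**Figure D2:**
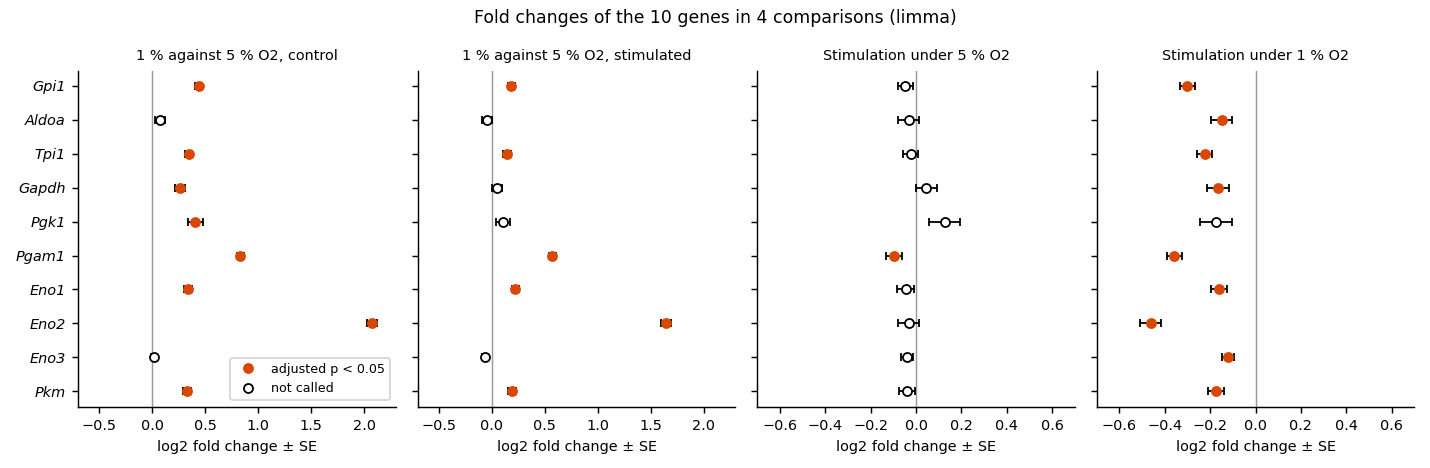
Log2 fold changes ± SE (x axis, limma, 24 libraries) of the 10 genes (y axis) for 1 % against 5 % O2 in unstimulated and in stimulated myotubes and for stimulation under 5 % and under 1 % O2, where the stimulation panels have a narrower x axis. Filled points are called at an adjusted p under 0.05, and Eno2 lies at 2.08 and 1.65 in the O2 panels while all 10 points lie below 0 for stimulation under 1 % O2.

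Stimulation changed these genes little under 5 % O2. In 5 % STIM against 5 % CTRL, Pgam1 was the only one of the 10 called, with a fall by 0.098 on the log2 scale (± 0.034 SE, adjusted p = 0.0374), while 21.4 % of all tested genes were called, 9.44 % as higher and 12 % as lower. The Pgam1 groups overlapped, as did those of the other 9 genes, while 5.64 % of all tested genes were wholly higher and 5.44 % wholly lower, and the call was lost in edgeR (adjusted p = 0.0587) and in limma voom (adjusted p = 0.0538). The other 9 differences lay between -0.047 (Gpi1) and 0.13 (Pgk1).

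Under 1 % O2, 9 of the 10 genes were lower in stimulated than in unstimulated myotubes, while 22.3 % of all tested genes were called, 11.5 % as higher and 10.8 % as lower. Pgk1 differed by -0.17 (adjusted p = 0.0765). Eno2 fell most (log2 -0.46 ± 0.046 SE, adjusted p = 1.02e-09), followed by Pgam1 (-0.36 ± 0.034, adjusted p = 4.1e-10), Gpi1 (-0.30 ± 0.033, adjusted p = 5.78e-09) and Tpi1 (-0.23 ± 0.033, adjusted p = 2.66e-06). The other falls were Pkm by 0.17, Gapdh by 0.16, Eno1 by 0.16, Aldoa by 0.15 and Eno3 by 0.12. The groups did not overlap for Gpi1, Tpi1, Pgam1, Eno2, Eno3 and Pkm, which was so in this direction for 5.91 % of all tested genes and in the opposite one for 5.29 %. The median of the 10 genes was -0.17 against -0.0031 over all tested genes. This comparison shares its 1 % CTRL libraries with the comparison of 1 % CTRL and 5 % CTRL.

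The response to stimulation under 1 % O2 minus that under 5 % O2 was negative for all 10 genes. It passed the test for Gpi1, Tpi1, Gapdh, Pgam1 and Eno2, where 11.3 % of all tested genes were called, 5.88 % as positive and 5.43 % as negative. The differences were -0.43 ± 0.066 (log2, SE) for Eno2 (adjusted p = 1.85e-05), -0.26 ± 0.049 for Pgam1 (adjusted p = 0.000324), -0.25 ± 0.046 for Gpi1 (adjusted p = 0.000217), -0.20 ± 0.047 for Tpi1 (adjusted p = 0.0037) and -0.21 ± 0.068 for Gapdh (adjusted p = 0.0435). Pgk1 had the second largest difference, -0.30 ± 0.097, at adjusted p = 0.0502, and with its copies added this was -0.12 (adjusted p = 0.0663). The Gapdh call was lost with the counts of its copies added (-0.088, adjusted p = 0.3) and when 1 library was left out in 16 of 24 cases, with differences between -0.25 and -0.18.

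The ratios of muscle to widely expressed isoforms were lower under 1 % O2. The log2 ratio of Eno3 to Eno1 was 0.18, 0.23 and 0.30 in 5 % CTRL (lowest, median and highest library) and -0.15, -0.11 and 0.025 in 1 % CTRL. The groups did not overlap, and the ratio fell by 0.32 (exact two-sided permutation test, p = 0.00216, the smallest that the 924 splits of 6 against 6 can give, adjusted p = 0.00509 over 40 tests of 10 ratios in 4 comparisons). In stimulated myotubes it fell by 0.29, with the same p in the exact permutation test. The ratio of Eno2 to Eno1 rose by 1.74 without and by 1.42 with stimulation (exact permutation test, adjusted p = 0.00509 for both), and it fell by 0.30 with stimulation under 1 % O2 at the same p, so Eno2 fell more than Eno1.

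Pgam2, the muscle mutase gene (ENSMUSG00000020475, chromosome 11, 5801640 to 5803733, minus strand), had 2416, 2713 and 2780 counts in 5 % CTRL, 1918, 2089 and 2344 in 1 % CTRL, 1902, 2392 and 2817 in 5 % STIM, and 1761, 1932 and 2047 in 1 % STIM. It was lower under 1 % O2 without stimulation (log2 -0.33 ± 0.072 SE, adjusted p = 0.000364) and with it (-0.29 ± 0.072, adjusted p = 0.00146), while Pgam1 rose. The ratio of Pgam2 to Pgam1 accordingly fell by 1.16 without and by 0.86 with stimulation (exact permutation test, adjusted p = 0.00509 for both). In counts per kilobase of annotated exons, Pgam1 was 57.7 % ± 1.72 (SD, n = 6) of the sum of both mutases in 5 % CTRL and 75.3 % ± 1.03 in 1 % CTRL. The shares were 59.0 % ± 4.69 in 5 % STIM and 72.3 % ± 1.88 in 1 % STIM.

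**Figure D3:**
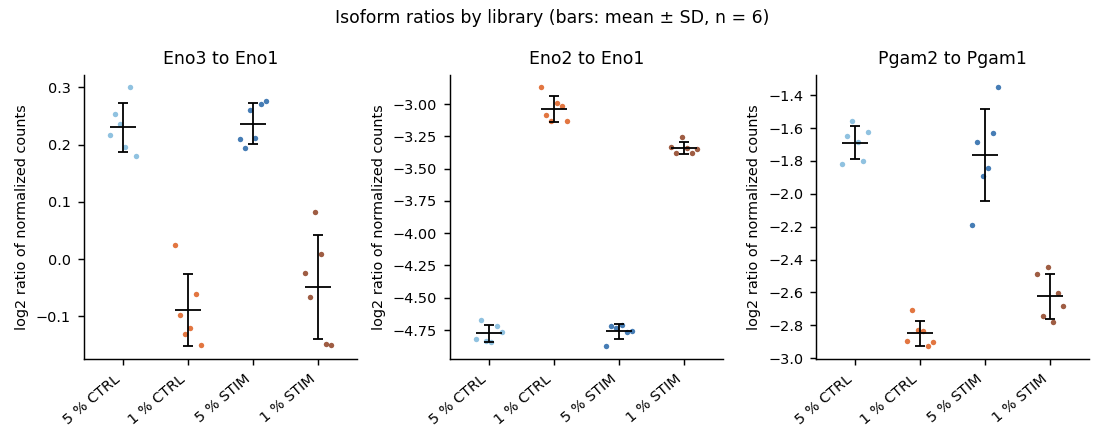
Log2 ratios of normalized counts (y axis, which does not start at 0) of Eno3 to Eno1, Eno2 to Eno1 and Pgam2 to Pgam1 in each library of the 4 groups (x axis), with bars for the mean ± SD (n = 6). In all 3 panels the libraries under 1 % O2 are separate from those under 5 % O2, above them for Eno2 to Eno1 and below them for the muscle isoforms.

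Counted the same way, Eno3 made up 77.7 % ± 0.501 (SD, n = 6) of the 3 enolases in 5 % CTRL and 71.8 % ± 0.737 in 1 % CTRL, and 77.8 % ± 0.431 and 72.9 % ± 1.19 with stimulation. Eno2 remained a small part, with 0.893 % ± 0.035 in 5 % CTRL and 3.44 % ± 0.141 in 1 % CTRL. The Eno3 share depended on the length used: with the longest transcript of each gene it was 59.7 % in 5 % CTRL and 52.8 % in 1 % CTRL, because the merged exons of Eno1 span 5379 bases and its longest transcript 2027. The choice of length could not change the direction, because Eno3 fell relative to both Eno1 and Eno2 under 1 % O2.

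The ratios of neighbouring steps show which genes rose more than the gene before them. Eno1 to Pgam1 fell by 0.49 in 1 % CTRL against 5 % CTRL, Aldoa to Gpi1 fell by 0.37, Tpi1 to Aldoa rose by 0.27 and Pgam1 to Pgk1 rose by 0.43 (exact permutation test, adjusted p = 0.00509 for each). Pkm to Eno1 differed by -0.013 (exact permutation test, adjusted p = 0.677). In all, 22 of the 40 ratio tests were called, 7 of 10 for O2 without stimulation, 7 of 10 for O2 with stimulation, 2 of 10 for stimulation under 5 % O2 and 6 of 10 for stimulation under 1 % O2. Ratios of other gene pairs were not tested, so no share over all genes stands beside these counts. Both calls for stimulation under 5 % O2, Gapdh to Tpi1 (0.069) and Pgam1 to Pgk1 (-0.22), were lost with all copies added (-0.038 with adjusted p = 0.104, and -0.036 with adjusted p = 0.651, exact permutation test).

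All 4 tested isoforms of these steps outside the set, Pgam2, Aldoc, Bpgm and Eno1b, were called in 1 % CTRL against 5 % CTRL, 2 as higher and 2 as lower. Of all tested genes, 59.9 % were called there. Eno1b, described with the copies of Eno1 below, rose by 0.50 (log2, adjusted p = 1.15e-13). Aldoc, the brain-type aldolase, had a mean of 335 counts in 5 % CTRL and fell under 1 % O2 without stimulation (log2 -0.20, adjusted p = 0.0153) and with it (-0.25, adjusted p = 0.00315). Bpgm, which makes 2,3-bisphosphoglycerate in red cells, had 717 counts and rose by 0.10 in 1 % CTRL against 5 % CTRL (adjusted p = 0.0392). Gapdhs, Pgk2, Eno4 and Pklr did not pass the filter, and no library had more than 6.13 counts of Eno4 or 1.05 of Gapdhs.

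In level per kilobase of merged exons in 5 % CTRL, Aldoa stood first at 17420 ± 920 (SD, n = 6), followed by Eno3 (14434 ± 517), Pkm (13750 ± 711), Tpi1 (8040 ± 365), Pgk1 (5207 ± 538), Pgam1 (4288 ± 102), Eno1 (3980 ± 199), Gpi1 (2988 ± 115), Gapdh (2873 ± 146) and Eno2 (166 ± 12.2). The libraries of Eno3 and Pkm, of Pgam1 and Eno1, and of Gpi1 and Gapdh overlapped, so their order is not settled. With the longest transcript as length, Eno1 was at 10560 (rank 5) and Pkm at 28275 (rank 2), and Pgam1 had rank 8. In 1 % CTRL, Pkm (17208 ± 416) passed Eno3 (14617 ± 376) and overlapped Aldoa, and Pgam1 (7636 ± 257) overlapped Pgk1 (6891 ± 587).

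Several of these values depend on where reads of near-identical copies were counted. Of the distinct words of 150 bases (the read length) in the annotated transcripts, 49.4 % were shared with another gene for Pgk1, 32.2 % for Pgam1, 18.1 % for Gapdh, 16.5 % for Eno1 and 7.23 % for Pkm, and no such word was shared for Gpi1, Aldoa, Tpi1, Eno2 and Eno3. The words come from every annotated transcript of a gene (13 for Gapdh), so these percentages are not shares of its reads. The coding sequence of Pgk1 (1251 bases without the stop codon) is identical to the processed pseudogene Gm5537 (chromosome 3, 58102996 to 58104247, GRCm38). That of Gapdh aligned to Gm13394 (chromosome 2, 28933610 to 28934609) over 999 bases with 1 mismatch, and that of Eno1 aligned to Gm4735 (chromosome 2, 80837141 to 80838442) over 1302 bases with 5 mismatches. A stretch of 90 coding bases of Gapdh (bases 379 to 468, counted from the start codon) and of Eno1 (bases 1011 to 1100) is shown beside the copy, from the GENCODE M21 transcripts, with the base that differs in capitals. Reads that miss such a base match both genes equally.
Gapdh: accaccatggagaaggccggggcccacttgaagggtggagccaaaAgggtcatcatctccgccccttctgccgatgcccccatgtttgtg
Gm13394: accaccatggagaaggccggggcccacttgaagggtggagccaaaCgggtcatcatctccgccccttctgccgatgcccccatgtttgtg
Eno1: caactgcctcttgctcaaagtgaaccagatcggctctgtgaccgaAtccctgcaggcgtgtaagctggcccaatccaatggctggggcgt
Gm4735: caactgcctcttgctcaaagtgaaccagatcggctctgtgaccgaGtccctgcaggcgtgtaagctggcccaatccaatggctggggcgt

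These copies held many counts. Gm13394 had 74606, 78060 and 80994 normalized counts in 5 % CTRL and 81647, 86069 and 91684 in 1 % CTRL, several times the counts of Gapdh itself. Gapdh held only 13.2 % of the reads of its 49 copies and itself together in 5 % CTRL and 14.1 % in 1 % CTRL. Gm7336, another Gapdh pseudogene, matched 1017 coding bases with no mismatch and had a mean of 191 counts in 5 % CTRL, and the cause of this difference between the copies was not tested. Gm5537 had 21343, 21990 and 23117 counts in 5 % CTRL and 24768, 26759 and 27801 in 1 % CTRL, and Pgk1 held 34.5 % and 37.0 % of its sum with 2 copies. Eno1b on chromosome 18, annotated as protein-coding, had means of 15326 and 21619 in these groups, Gm4735 had 12154 and 17074, and Eno1 held 43.8 % and 41.1 % of the sum of the 3. Pgam1 held 99.97 % of its sum with the pseudogene Pgam1-ps2 in 5 % CTRL, although the coding sequences are identical over 762 bases.

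**Figure D4:**
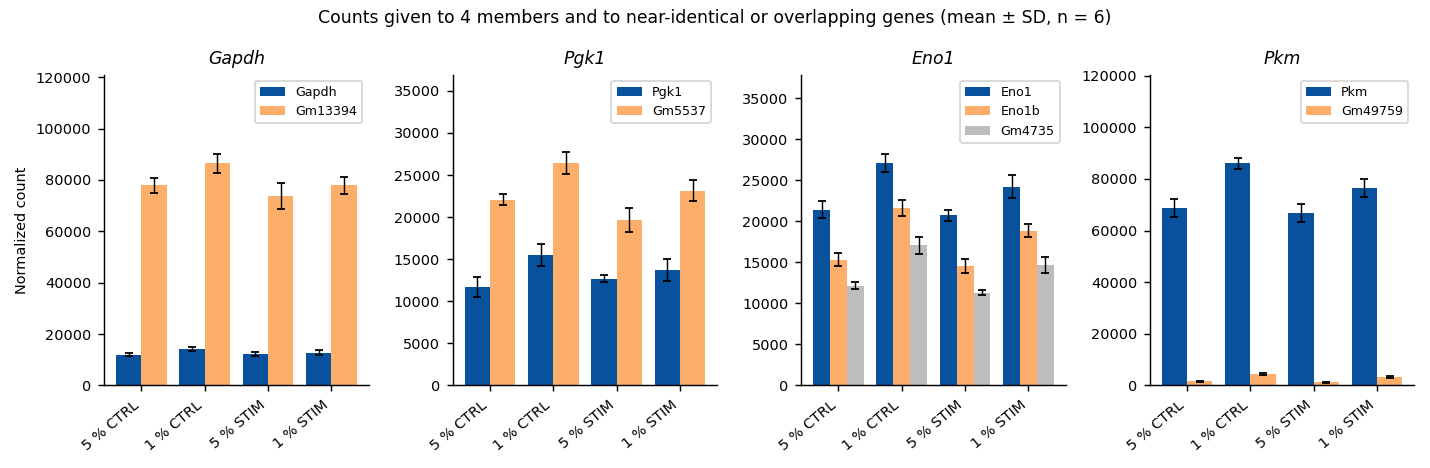
Mean normalized counts ± SD (y axis, from 0, n = 6) of Gapdh, Pgk1, Eno1 and Pkm and of genes that share sequence with them, in the 4 groups (x axis). Gm13394 stands far above Gapdh and Gm5537 above Pgk1 in every group, and Gm13394, Gm5537, Eno1b and Gm4735 are higher in 1 % CTRL than in 5 % CTRL, as their parent genes are.

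Counts summed over each gene and all its copies changed several values. Gapdh and its copies together rose by 0.17 ± 0.037 (log2, SE, adjusted p = 0.00019) in 1 % CTRL against 5 % CTRL, less than Gapdh alone, and their level per kilobase of Gapdh exons in 5 % CTRL was 21800 ± 871, first among the 10 genes in place of ninth. The level of Pgk1 with its copies was 15075 (rank 3 in place of 5) and that of Eno1 with its copies was 9088 (rank 6 in place of 7). Pgk1 with its copies rose by 0.31 ± 0.030 without stimulation (adjusted p = 1.13e-10). With stimulation it rose by 0.19 ± 0.030 (adjusted p = 2.81e-06), a call that Pgk1 alone did not reach. It fell by 0.18 with stimulation under 1 % O2 (adjusted p = 1.84e-05), so that all 10 genes passed in that comparison. Eno1 with its copies rose by 0.43 ± 0.030 without stimulation (adjusted p = 3.29e-14) and by 0.31 ± 0.030 with it (adjusted p = 1.07e-10), more than Eno1 alone. The Eno3 share of the 3 enolases in 5 % CTRL was then 60.9 %. This sum was chosen after the data were seen.

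The division of reads between Pgk1 and Gm5537 varied from library to library. The SD of the log2 deviations from the group means over the 24 libraries was 0.122 for Pgk1, 0.077 for Gm5537 and 0.051 for their sum, and the coefficient of variation was 10.3 % for Pgk1 and 4.52 % for the sum with its copies in 5 % CTRL. In 5 % STIM the sum was not the steadier, with 3.02 % for Pgk1 and 3.85 % for the sum. The deviations of both genes had a correlation of -0.36 over the 24 libraries, in which they share the reads that are divided. For Gapdh and Gm13394 it was 0.59 and for Eno1 and Eno1b 0.57.

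**Figure D5:**
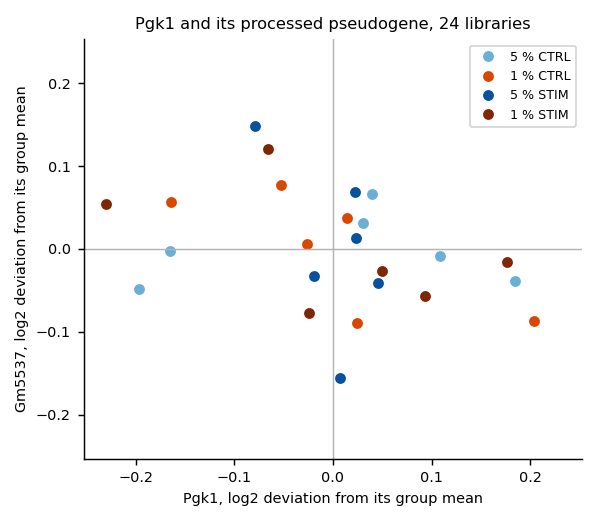
Log2 deviation of Pgk1 (x axis) and of its processed pseudogene Gm5537 (y axis) from the mean of their own group in each of the 24 libraries, coloured by group. The Pgk1 values are the more spread (SD 0.122 against 0.077), and the correlation is -0.36.

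The gene Gm49759 lies within Pkm on the same strand and shares 767 exon bases with it. It had 1456, 1656 and 1871 counts in 5 % CTRL, 4002, 4265 and 4905 in 1 % CTRL, 1062, 1135 and 1329 in 5 % STIM, and 2855, 3282 and 3505 in 1 % STIM. It rose by 1.41 ± 0.071 (log2, SE, adjusted p = 2.83e-14) without stimulation and by 1.47 ± 0.071 with it, more than Pkm, and it fell with stimulation under 5 % O2 (-0.49, adjusted p = 1.54e-05) and under 1 % O2 (-0.44, adjusted p = 5.61e-05). Pkm held 97.6 % of the sum with its 2 copies in 5 % CTRL and 95.1 % in 1 % CTRL. Opposite-strand exons of Fam57b, Iffo1 and Spsb2 overlap Aldoa, Gapdh and Tpi1 by 25, 68 and 34 bases, and the counting, at default settings of RSEM, ignored the strand.

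The steps above these enzymes moved more. Of 15 listed genes of glucose uptake and upper glycolysis, 12 were tested, 9 were higher and 2 lower in 1 % CTRL than in 5 % CTRL, with a median log2 fold change of 1.04 against 0.34 for the 10 lower enzymes. In stimulated myotubes 8 were higher and 2 lower, and stimulation lowered 7 of them under 1 % O2. Stimulation under 5 % O2 raised 1 and lowered 3. Beside this list and those that follow, 29.4 % of all tested genes were higher and 30.5 % lower in 1 % CTRL against 5 % CTRL. In stimulated myotubes the shares were 29 % higher and 28.4 % lower. For stimulation they were 9.44 % higher and 12 % lower under 5 % O2, and 11.5 % and 10.8 % under 1 % O2. Slc2a3, a glucose transporter gene, had a mean of 9.08 counts in 5 % CTRL and 221 in 1 % CTRL (log2 4.52 ± 0.22 SE, adjusted p = 5.54e-17). Its counts under 5 % O2 were near the minimum set by the filter, so the size of this rise rests on a low base. Pfkfb3, whose product makes the activator of phosphofructokinase, rose 4.94-fold from 966 to 4765 (SE of log2 0.044, adjusted p = 9.58e-30). Pfkm, the muscle phosphofructokinase gene, fell by 0.21 without stimulation (adjusted p = 8.62e-07) and by 0.18 with it (adjusted p = 1.11e-05), as the muscle mutase gene did.

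After pyruvate, the 16 tested genes of pyruvate and lactate handling were 4 higher and 8 lower in 1 % CTRL against 5 % CTRL (median -0.065), and 4 higher and 7 lower with stimulation. Stimulation raised 4 and lowered 1 of them under 5 % O2, and raised 3 and lowered 4 under 1 % O2. Slc16a3, the lactate exporter MCT4, rose 2.83-fold (SE of log2 0.062, adjusted p = 4.93e-17) and Pdk1, an inhibitory kinase of pyruvate dehydrogenase, by 0.66 ± 0.029 on the log2 scale (SE, adjusted p = 9.69e-20) without stimulation. Pdk4, another such kinase, fell by 1.14 ± 0.075 (adjusted p = 8.53e-13), and Gpt2, the mitochondrial alanine aminotransferase gene, fell by 0.58 ± 0.036 (adjusted p = 7.94e-16).

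Of 15 tested genes in the branches from glycolysis and its reversal, 3 were higher and 9 lower under 1 % O2 without stimulation (median -0.17), and 3 were higher and 8 lower with it. Stimulation raised 4 and lowered 3 under 5 % O2, and under 1 % O2 it raised 4 while 11 were not called. G6pdx, the entry enzyme of the pentose phosphate pathway, rose by 0.34 (adjusted p = 1.03e-08) and Pgd, a later enzyme of it, by 0.18 (adjusted p = 2.47e-05). Pck2, the mitochondrial phosphoenolpyruvate carboxykinase gene, fell by 0.95 (adjusted p = 9.94e-20), and Rpia of the pentose phosphate pathway fell by 0.71 (adjusted p = 4.41e-12). Of 13 genes often used as references, 6 were higher and 6 lower in 1 % CTRL than in 5 % CTRL, with Tfrc (log2 0.94) rising and Ywhaz (-0.33) and Tbp (-0.24) falling. Under stimulation O2 raised 6 and lowered 3 of them, and stimulation raised 2 and lowered 5 under 5 % O2 and raised 1 and lowered 4 under 1 % O2.

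The genes outside the set whose log2 counts followed each of the 10 most closely over the 24 libraries were found among the annotated tested genes, as a description. Some of the 10 were closer to each other than to any of these. The correlation was 0.984 between Gpi1 and Tpi1, 0.974 between Gpi1 and Pkm and 0.966 between Tpi1 and Pkm. That of Eno1 with Pkm, 0.971, exceeded those of Pkm with any gene outside the set, but not that of Eno1 with Cd151. Outside the set, Eno2 was closest to Ak4 (Pearson's r = 0.996), Adm (0.994) and Slc2a1 (0.994), and Pgam1 to Slc16a3 (0.996), Triobp (0.993) and Pfkl (0.989). Gpi1 and Tpi1 were both closest to Pgm1 (0.969 and 0.956) and Prdm1 (0.961 and 0.954), and Eno1 and Pkm were both closest to Cd151 (0.974 and 0.949) and Cfl1 (0.959 and 0.946). Aldoa was closest to the muscle actin gene Acta1 (0.845) and Eno3 to Sla2 (0.877). Gapdh was closest to Rpl3-ps1 (0.930), a pseudogene, and Pgk1 to Elof1 (0.898). Eno2 and Eno3 had a correlation of -0.013.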

How the data were processed

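RNA of 24 C2C12 myotube cultures was sequenced, 6 in each of 4 groups that were assigned from the sample labels. The authors prepared stranded mRNA libraries sequenced 150 bases from a single end, checked reads with FastQC 0.11.7, aligned them to GRCm38 with STAR 2.5.4b and estimated counts per gene with RSEM 1.3.0 at default settings, which ignore the strand. The deposited signal is the gene count divided by the DESeq2 size factor of the library, per the study's methods, with no filter on low counts. RSEM divides reads that match several genes among them by estimated probabilities. A second deposited table holds only the authors' own log2 fold changes, p-values and calls per comparison and was not used. In every library the values were whole multiples of 1 step, which returned whole counts per gene. These counts are estimates by RSEM, and their sum is not the number of reads sequenced.

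Genes that reached 10 normalized counts in 6 or more libraries were tested (14541 of 55487). One limma 3.58.1 model of the 4 groups was fitted to log2(normalized count + 1) (R 4.3.3, trended and robust moderation), and a Benjamini-Hochberg adjusted p under 0.05 was called. Fold changes are on the log2(value + 1) scale. Ratios of 10 gene pairs were tested by exact permutation (two-sided, all 924 splits), adjusted over 40 tests. GENCODE M21 (GRCm38) gave coordinates and merged exon lengths, and its transcripts gave shared words of 150 bases. Coding sequences were aligned with Biopython 1.88. The limma fit was tested on simulated data.

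The text describes all 10 members and the other isoforms of their steps. From the lists of upper glycolysis, pyruvate and lactate, branches and reversal, and reference genes, it names up to 2 called genes with the largest rise and 2 with the largest fall in 1 % CTRL against 5 % CTRL among those whose higher group averaged 100 or more. It names genes that share 150-base words with a member where their mean was at least 100, and the tested genes closest to each member by correlation. Some genes that these rules would name are not reported here. The members, the lists and these rules were chosen with earlier results of these data known. Same-numbered replicates did not deviate together (correlations between -0.15 and 0.15 over all 4 comparisons), so replicate numbers were not used as a block. Alternatives were an adjusted p under 0.01, a replicate block, the compared groups alone, a pseudocount of 10, no filter and equal library totals. Further ones were array weights, and edgeR 4.0.16, DESeq2 1.42.0 and limma voom on the whole counts. The last were counts of pseudogenes or of all copies added, the longest transcript as length, and leaving out each library in turn.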

Additional observations from a re-analysis of the deposited data

Results flagged for a closer look

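In 5 of the 10 genes the response to stimulation differed between 1 % and 5 % O2 by the interaction test of the limma fit. Of all tested genes, 11.3 % were called in this test, 5.43 % with a negative difference. The response under 1 % O2 minus that under 5 % O2 was -0.43 (log2) for Eno2, -0.26 for Pgam1, -0.25 for Gpi1, -0.20 for Tpi1 and -0.21 for Gapdh. All 6 stimulated libraries under 1 % O2 lay below all 6 unstimulated ones for Eno2, Pgam1, Gpi1 and Tpi1. This was so for 5.91 % of all tested genes. Gapdh groups overlapped, and its difference was -0.088 (adjusted p = 0.3) once its copies were counted with it. The Gapdh call was also lost in edgeR (adjusted p = 0.0509), in limma voom (0.0561) and in limma with no filter (0.0972). In the 40 groups of 6 libraries that the 10 genes form, no library stood apart from the others by Dixon's criterion (0.625 for 6 samples).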

How the results depend on the processing

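For O2 without stimulation, 8 to 10 of the 10 genes were called under every alternative and in every fit without 1 library (8 to 8 there). For O2 with stimulation it was 6 to 8 (6 to 7 without 1 library), where Eno3 gained a call as lower, opposite to the 6 higher genes, with no filter, the replicate block, array weights and DESeq2 (adjusted p = 0.0478, 0.0348, 0.0248 and 0.0316) and in 7 fits without 1 library, for stimulation under 1 % O2 7 to 10 (9 to 10), and for the interaction 4 to 7 (4 to 7), where the fit of the compared groups alone gives no interaction. The single call for stimulation under 5 % O2, Pgam1, was absent (0 of 10 called) with no filter, at an adjusted p under 0.01, with libraries rescaled to the same total, in edgeR and in limma voom, and it ranged from 0 to 1 without 1 library: it was lost without 5 % CTRL replicate 1, 2, 4 or 6 or 5 % STIM replicate 3, 5 or 6. In each of these 5 alternatives 1 gene had an unadjusted p under 0.05, and DESeq2 called 1, Pgam1. That gene was Pgk1 with libraries rescaled to the same total, and Pgam1 in the others. The replicate block changed no count of called genes by more than 1.5 times (7 and 10 genes for stimulated O2 and for stimulation under 1 % O2, 7 for the interaction). With the block the sign-flip test of the ratios called 0 of 40, because 6 pairs allow no p under 0.0312 (adjusted p = 0.0595). Its smallest p cannot pass after adjustment. The ratios called numbered 21 to 23 without 1 library, 27 with pseudogene counts and 28 with all copies added, of which 0 were for stimulation under 5 % O2 in either case.

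The Eno3 share of the 3 enolases in 5 % CTRL, 1 % CTRL, 5 % STIM and 1 % STIM was 59.7 %, 52.8 %, 59.8 % and 53.9 % with the longest transcript, 69.3 %, 62.1 %, 69.6 % and 63.4 % with pseudogene counts added, and 60.9 %, 53.1 %, 61.4 % and 54.4 % with all copies added. The sign turned only in differences that were not called, apart from Gapdh to Tpi1 for stimulation under 5 % O2 (-0.038 with pseudogenes or all copies, against 0.069). Rescaling to the same total turned Tpi1 for stimulation under 5 % O2 (0.0080) and Aldoa (0.024) and Eno3 (0.0067) for O2 with stimulation. Adding pseudogenes or all copies turned Gapdh (-0.061) and Pgk1 (-0.062) for stimulation under 5 % O2, Pgk1 to Gapdh there (-0.0013 and -0.0012) and Pkm to Eno1 for stimulation under 1 % O2 (0.010 and 0.0028). The cause was not tested. The isoforms that did not pass the filter had too few counts to be tested. Low counts also limit the second Aldoa row and Slc2a3, with means of 4.99 and 9.08 in 5 % CTRL.

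Leaving out 1 library turned the sign of some uncalled differences. For stimulation under 5 % O2 the ranges were -0.0575 to 0.0016 for Aldoa, -0.0390 to 0.00076 for Tpi1, -0.0578 to 0.0026 for Eno2, -0.0036 to 0.0204 for Eno3 to Eno1, -0.159 to 0.0085 for Pgam2 to Pgam1, -0.0011 to 0.0264 for Aldoa to Gpi1, -0.00082 to 0.0275 for Tpi1 to Aldoa and -0.0016 to 0.0208 for Pkm to Eno1. Pkm to Eno1 ranged from -0.0261 to 0.00074 for O2 without stimulation and from -0.0275 to 0.0022 for stimulation under 1 % O2, where Pgk1 to Gapdh ranged from -0.0472 to 0.0178.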

Other observations

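Gm13394, a processed pseudogene of Gapdh, carried a mean of 77910 normalized counts in 5 % CTRL against 11875 for Gapdh and 68766 for Pkm. Gapdh alone and Gapdh with its 49 copies differed in rank of level per kilobase (ninth and first of 10) and in the size of the rise under 1 % O2 (log2 0.26 and 0.17).

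The processed pseudogene Gm5537 fell with stimulation under 5 % O2 (log2 -0.17, adjusted p = 0.0022), while Pgk1 differed by 0.13 (adjusted p = 0.217) and their sum by -0.062 (adjusted p = 0.15). The share of Pgk1 in that sum was 34.5 % in 5 % CTRL and 39.2 % in 5 % STIM.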
